A study of Mus musculus with 2 samples.

Results

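Collagen genes were followed through the mouse kidney cells of 2 libraries, as the genes whose symbol is Col, a type number, the letter a and a chain number. Of 31053 genes in the count matrices 44 fit that pattern. Genes of types Col4, Col15 and Col18 were grouped as basement membrane collagens (8 genes), genes of types Col1, Col3 and Col5 as fibrillar collagens (6 genes), and the remaining 30 were kept as other collagens. One library came from wild type kidney, labelled WT, and the other from kidney labelled Kif3aΔTub, whose genotype is given as KO, both at 5 weeks of age. Kif3a encodes a motor subunit needed to build the primary cilium, and mice that lose it in renal tubules are a model of cystic and chronic kidney disease. The promoter that drives the deletion, the number of animals behind each library and a floxed or Cre genotype of the control are not given in the sources used here. Cells were freed by a cold active protease, depleted of dead cells and profiled with 10x Chromium 3′ chemistry, which counts 1 end of each captured transcript by a unique molecular identifier (UMI), so that levels were not divided by transcript length.

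Collagens are trimers of alpha chains that share a repeated glycine motif. Type IV chains form the sheet of every basement membrane: Col4a1 and Col4a2 make the network found in nearly all tissues, while Col4a3, Col4a4 and Col4a5 make the network of the glomerular and some tubular basement membranes, whose loss causes Alport syndrome. Col15a1 and Col18a1 carry heparan or chondroitin sulphate chains and sit at the outer face of basement membranes. Type I, III and V chains assemble into the interstitial fibrils that fibroblasts deposit in scarring kidneys.

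Levels are counts per 1000000 UMIs of a cell class (CPM) and are given for WT first and Kif3aΔTub second. With 1 library per genotype there was no test and no replicate check of any difference, and the 95% intervals given express the error of counting UMIs and nothing else. After filters 4317 WT and 7066 Kif3aΔTub cells remained, with median depths of 7771 and 7799 UMIs and median shares of mitochondrial UMIs of 26.8% and 7.54%. Only 17 kept cells of the libraries carried the same barcode. Clusters were built without the collagen genes and named from markers, so each class is a marker-defined likeness, and 4 clusters stayed unnamed. Kif3a was at 10.3 CPM (9.37 to 11.3) in WT and 12.2 (11.5 to 13.01) in Kif3aΔTub, at 22.8 and 10.97 in principal-like cells and at 15.3 and 7.81 in intercalated-like cells. In proximal tubule-like cells it was at 8.28 and 14.5. The 3′ tags may lie outside the deleted part, so nothing about the deletion was checked by these values.

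The promoters of 4 basement membrane collagens are shown because these genes carried most of the differences described further on and because Col4a1 and Col4a2 share theirs. The windows run from 250 bases before to 50 bases after the transcript start, in RefSeq on GRCm38.p6, with capitals for 3 promoter motifs on either strand: the TATA box (searched as TATAAA), the box bound by NF-Y (searched as CCAAT) and the GC box bound by Sp factors (searched as GGGCGG). The Col4a1 window is chr8:11312777-11313076 on the minus strand, that of Col4a2 chr8:11312555-11312854 on the plus strand, that of Col4a4 chr1:82586800-82587099 on the minus strand, and that of the upstream start of Col18a1 chr10:77166481-77166780 on the minus strand.
Col4a1: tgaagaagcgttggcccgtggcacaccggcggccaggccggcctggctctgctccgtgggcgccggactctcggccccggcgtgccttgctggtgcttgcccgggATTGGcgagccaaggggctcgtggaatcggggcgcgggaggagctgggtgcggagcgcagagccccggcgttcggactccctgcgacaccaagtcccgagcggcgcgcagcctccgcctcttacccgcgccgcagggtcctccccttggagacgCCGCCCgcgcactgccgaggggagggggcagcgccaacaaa
Col4a2: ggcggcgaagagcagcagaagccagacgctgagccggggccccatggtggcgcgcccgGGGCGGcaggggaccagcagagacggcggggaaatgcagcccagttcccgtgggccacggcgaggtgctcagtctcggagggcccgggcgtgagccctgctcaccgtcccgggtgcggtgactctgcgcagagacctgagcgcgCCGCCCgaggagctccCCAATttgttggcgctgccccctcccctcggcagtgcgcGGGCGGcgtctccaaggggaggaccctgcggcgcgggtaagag
Col4a4: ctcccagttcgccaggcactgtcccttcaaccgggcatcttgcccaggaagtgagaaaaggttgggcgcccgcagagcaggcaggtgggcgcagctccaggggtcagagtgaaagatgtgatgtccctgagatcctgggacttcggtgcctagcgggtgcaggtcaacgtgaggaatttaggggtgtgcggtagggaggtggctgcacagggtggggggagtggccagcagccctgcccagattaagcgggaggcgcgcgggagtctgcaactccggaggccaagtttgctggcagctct
Col18a1: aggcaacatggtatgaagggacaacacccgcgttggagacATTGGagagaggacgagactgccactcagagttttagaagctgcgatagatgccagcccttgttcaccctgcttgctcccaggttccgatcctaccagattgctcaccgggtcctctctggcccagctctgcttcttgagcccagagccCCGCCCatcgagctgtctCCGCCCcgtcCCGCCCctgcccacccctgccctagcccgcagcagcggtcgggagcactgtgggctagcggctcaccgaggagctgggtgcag

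Col4a1 and Col4a2 lie head to head on chromosome 8, with annotated starts 21 bases apart, and their windows share 78 bases, so that 1 GGGCGG match stands in both. Col4a3 and Col4a4 lie head to head on chromosome 1 with starts 72 bases apart, and Col4a5 and Col4a6 on chromosome X with starts 1309 bases apart. The Col4a4 window holds none of the 3 motifs, and the Col18a1 window 1 CCAAT and 3 GGGCGG matches. RefSeq windows were found for 35 of the 44 genes, 38 windows in all. GGGCGG stood in 60.5% of these windows and in 35.7% of all 32851 windows of that length, CCAAT in 34.2% and 37.4%, and TATAAA in 13.2% and 13.6%. A match of letters is a description of the window only. By the GENCODE annotation in the same build, Col4a1, Col4a2, Col4a3, Col4a5, Col4a6, Col5a1, Col5a3, Col12a1, Col14a1, Col15a1 and Col24a1 each overlap a gene or pseudogene on the other strand, as Col18a1 overlaps Slc19a1, and whether the counting used strand is not given in the sources used here.

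Expression of the family was concentrated in a few genes. Of the 44 collagens, 27 reached 20 UMIs in at least 1 class of 1 library, among them all 8 basement membrane and all 6 fibrillar genes and 13 of the 30 others. A further 17 did not, 13 genes had fewer than 20 UMIs over all kept cells of both libraries, and Col6a4 and Col6a5 had none. Basement membrane collagens took 25640 of 30074 collagen UMIs in WT and 79523 of 92934 in Kif3aΔTub. Col4a4, Col4a1, Col18a1, Col4a3 and Col4a2 led in Kif3aΔTub, and Col4a4, Col4a3, Col4a1, Col27a1 and Col4a2 in WT.

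**Figure D1:**
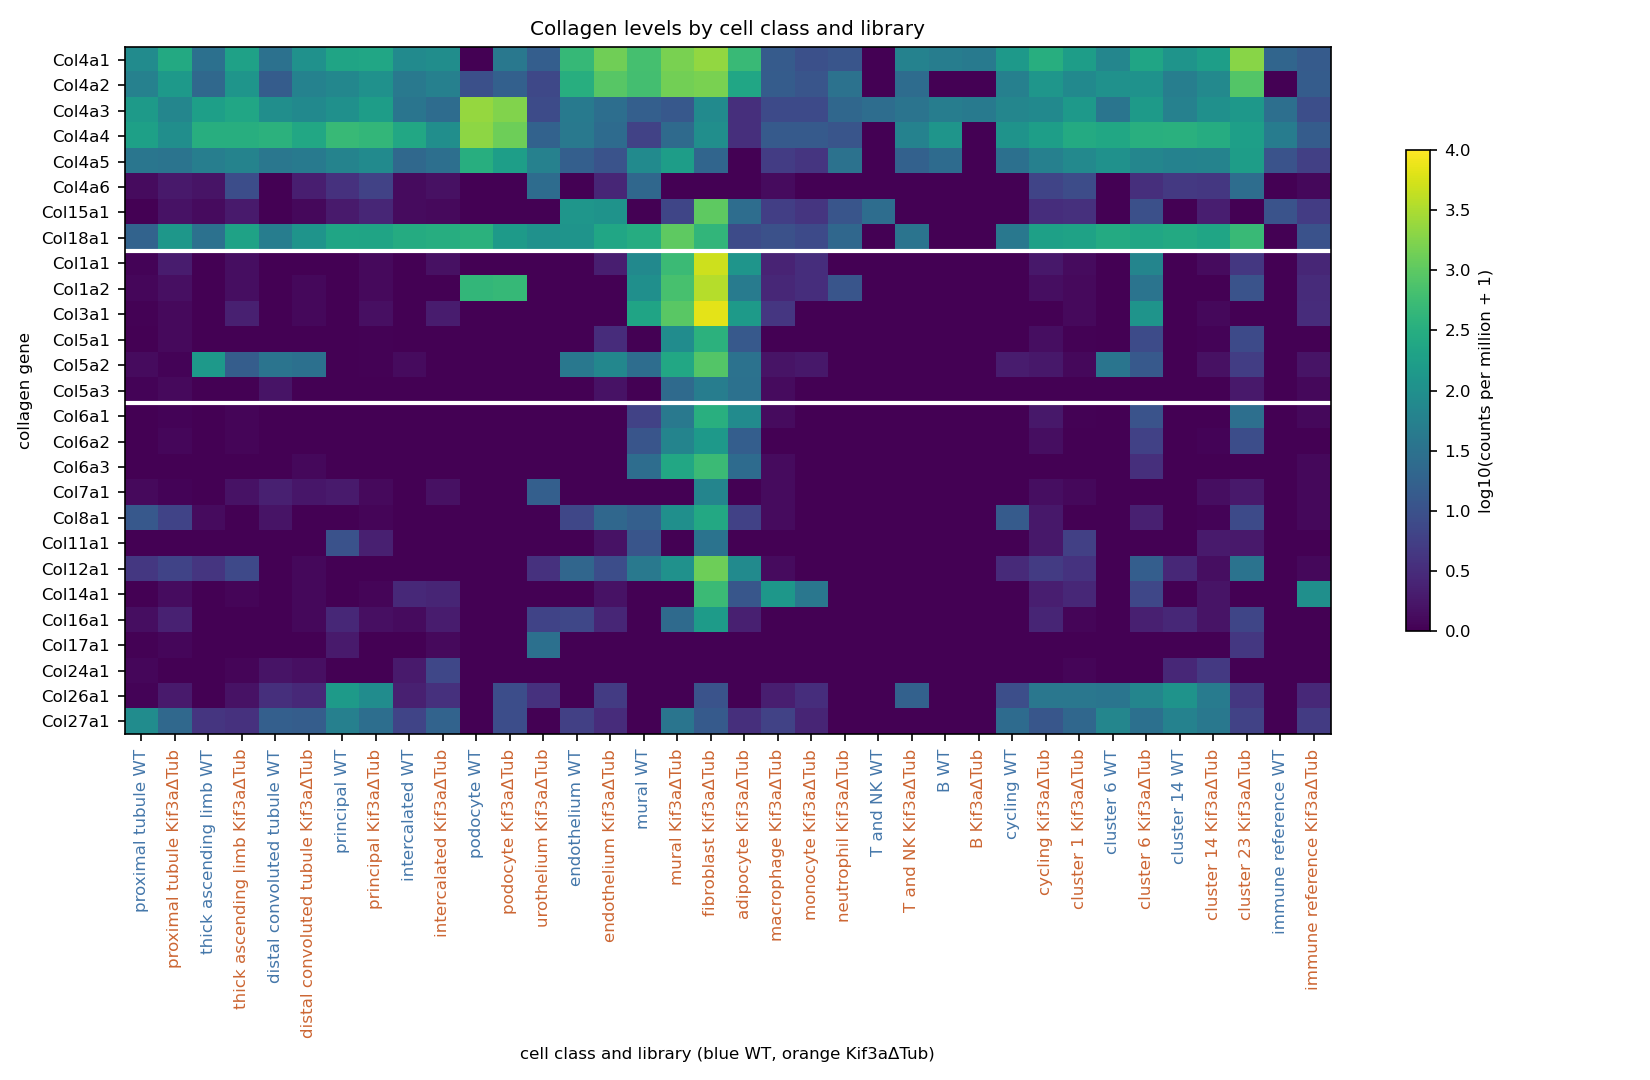
Level of each collagen gene with at least 20 UMIs in a class, as log10 of CPM plus 1 (colour), by cell class and library (columns, blue labels WT and orange labels Kif3aΔTub); white lines part the basement membrane, fibrillar and other genes. Col4a3 and Col4a4 are brightest in podocytes, Col4a1 and Col4a2 in endothelium, mural cells, fibroblasts and cluster 23, and the fibrillar genes in fibroblasts.

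The 2 type IV networks were spread over different cells. Podocyte-like cells, which make the glomerular basement membrane on its epithelial side, held the most Col4a3, at 2291 CPM (2027 to 2581) in 16 WT cells and 1763 (1539 to 2009) in 30 Kif3aΔTub cells. Col4a4 stood there at 2114 and 1298 CPM and Col4a5 at 320.1 and 173 CPM. Col4a1 made up only 2.94% (0.962 to 6.73) of the UMIs of Col4a1 and Col4a4 in these Kif3aΔTub cells. In mural-like cells, the class of smooth muscle, pericytes, mesangium and renin cells, that share was 99.2% in WT and 98.6% in Kif3aΔTub. Endothelium-like cells had it at 92.4% (89.0 to 94.9) and 98.2% (97.6 to 98.7). Tubule cells of WT stood between these, from 7.28% in distal convoluted tubule-like to 30.9% in principal-like cells.

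The share of Col4a1 against Col4a4 was higher in Kif3aΔTub in each of the 5 compared tubule classes than in WT, and the intervals did not overlap in 4 of them. In proximal tubule-like cells it was 30.8% (29.8 to 31.8) in WT and 73.7% (72.2 to 75.1) in Kif3aΔTub. In thick ascending limb-like cells it was 8.43% (6.86 to 10.2) and 37.0% (35.4 to 38.5), and in distal convoluted tubule-like cells 7.28% and 29.2%. Intercalated-like cells had 24.2% (21.6 to 26.9) and 49.5% (45.8 to 53.2). In principal-like cells the shares were close, at 30.9% (27.6 to 34.2) and 34.3% (33.3 to 35.2), and their intervals overlap. Median mitochondrial UMIs also differed between the libraries in these classes, and their part in the shares was not tested.

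Within single clusters the share did not always follow the class. In cluster 18, the principal cluster with cells of both libraries, it was 30.8% (27.5 to 34.3) in WT and 23.8% (21.6 to 26.2) in Kif3aΔTub, the opposite order. In cluster 13 of thick ascending limb-like cells it was 8.66% (7.02 to 10.54) and 14.5% (7.70 to 23.9), with overlapping intervals. It was higher in Kif3aΔTub in proximal tubule clusters 0, at 30.5% and 69.9%, and 10, at 42.0% and 85.7%, while in cluster 5 the intervals of 38.6% (35.5 to 41.8) and 61.5% (40.6 to 79.8) overlap. Cluster 12 of distal convoluted tubule-like cells had 13.1% (8.39 to 19.2) and 29.2% (26.9 to 31.6), and the intercalated clusters 11 and 17 had 22.7% and 51.1%, and 25.6% and 45.3%.

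The head-to-head pair of Col4a1 and Col4a2 kept closer proportions. Col4a1 made up between 45.8% and 76.0% of the UMIs of Col4a1 and Col4a2 in every class and unnamed cluster of a library with at least 20 cells and 20 such UMIs. Over 19 classes of Kif3aΔTub with at least 20 cells the Spearman rho of Col4a1 with Col4a2 was 0.96 and that of Col4a3 with Col4a4 0.95, against 0.20 for Col4a1 with Col4a4. Over 9 classes of WT these were 0.80, 0.52 and -0.43. For Col4a3 with Col4a5 it was 0.72 in Kif3aΔTub and -0.28 in WT, and for Col4a4 with Col4a5 0.73 and 0.12. They describe points that share a library and differ in depth. Col4a3 was the lesser partner of Col4a4 in tubules, at 44.4% and 41.9% of their UMIs in proximal tubule-like and 12.1% and 21.1% in intercalated-like cells, and the greater in Kif3aΔTub podocyte-like cells at 57.6% (52.5 to 62.6). Col4a5 kept no fixed proportion to Col4a3, which made up 91.1% of their UMIs in podocyte-like, 11.4% in urothelium-like and 6.45% in mural-like cells of Kif3aΔTub. Whether capture at the 3′ end differs between the genes was not tested.

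**Figure D2:**
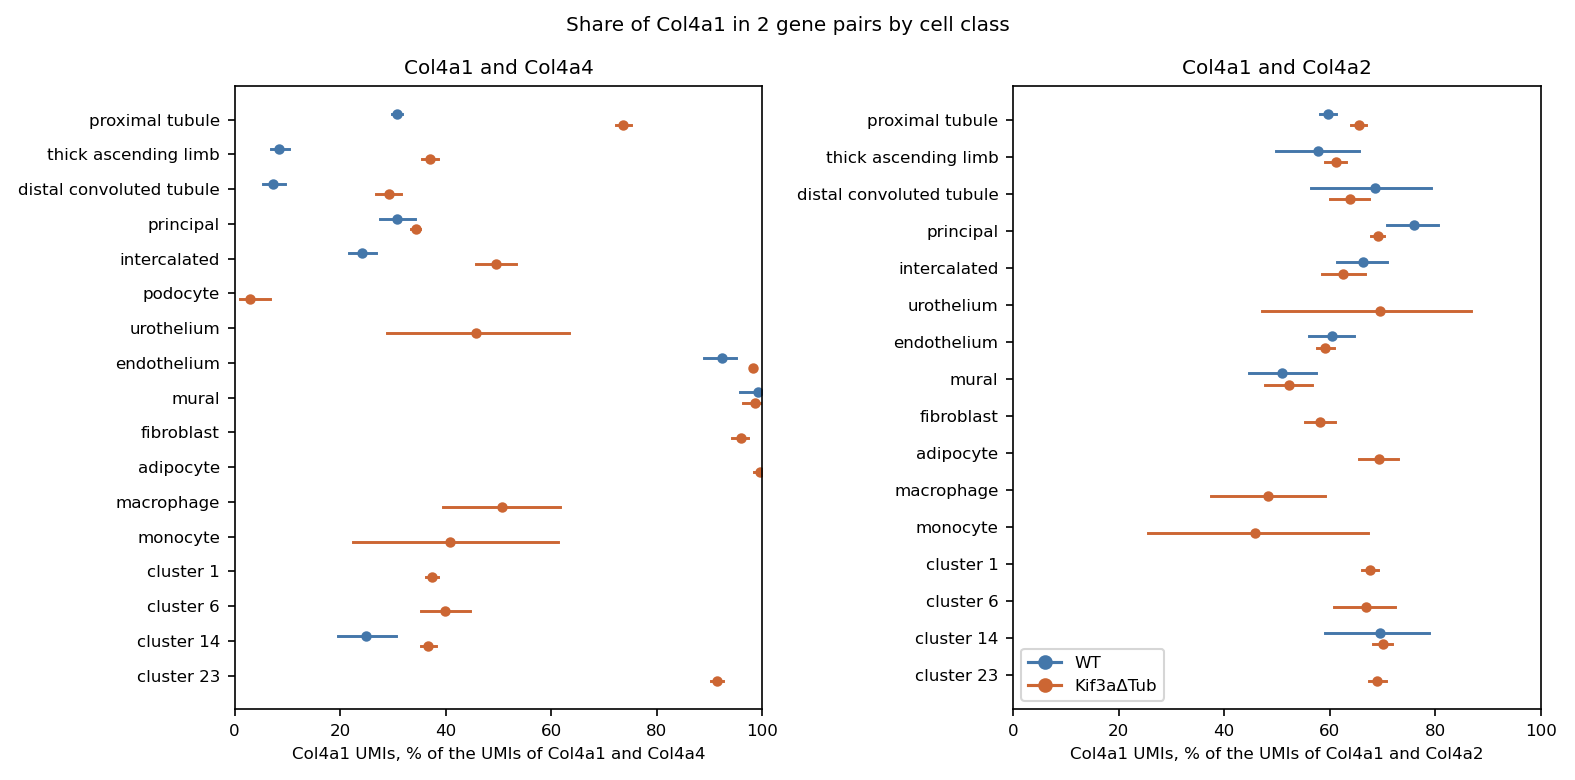
Percent of UMIs from Col4a1 among those of Col4a1 and Col4a4 (left) and of Col4a1 and Col4a2 (right), by class (rows) and library (blue WT, orange Kif3aΔTub), with exact 95% binomial intervals as lines. The left shares run from 2.94% in podocytes to over 90% in endothelium, mural cells, fibroblasts and cluster 23, while the right shares stay between 45.8% and 76.0%.

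In each of the 6 classes with at least 100 cells in both libraries, members with at least 20 UMIs over both were compared with the median gene of that class, and a member at least 2-fold above or below it is called higher or lower. The median gene itself stood at log2 ratios of 0.24 in proximal tubule-like, 0.46 in thick ascending limb-like, 0.48 in distal convoluted tubule-like, 0.02 in principal-like, 0.26 in intercalated-like and 0.03 in endothelium-like cells. Summed proximal tubule markers stood in the other 5 of these classes between 522 and 1703 CPM in WT and between 45.7 and 257 in Kif3aΔTub, and their part in the ratios was not tested. Log2 ratios in the following are Kif3aΔTub over WT relative to the median gene of the class, unless a ratio of CPM is named. In each class most cells of the libraries sat in different clusters, so the comparison also sets these clusters side by side. The split was less marked in the intercalated and endothelial classes. Intercalated cluster 11 held 123 WT and 290 Kif3aΔTub cells and cluster 17 held 164 and 143. Endothelial cluster 15 held 91 and 231 and cluster 16 held 64 and 243.

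In proximal tubule-like cells of the Kif3aΔTub library, the Col4a1 and Col18a1 genes stood higher and the Col4a3, Col4a4 and Col27a1 genes lower than in WT. The plot of member ratios shows this for each class. Col4a1 was at 83.8 CPM in 2963 WT cells and at 264 in 1017 Kif3aΔTub cells (log2 ratio 1.42, 1.34 to 1.495), and its partner Col4a2 at 56.6 and 139 (1.06, 0.96 to 1.16). Col18a1, whose cleaved end is endostatin, was at 17.97 and 130.2 CPM (2.62, 2.48 to 2.77). Col4a3 was at 151.0 and 68.0 (-1.39, -1.502 to -1.27), Col4a4 at 189 and 94.3 (-1.24, -1.34 to -1.14), and Col4a5 near level at 36.3 and 34.1 (-0.33). Col4a1 and Col4a2 thus had fewer UMIs than Col4a3 and Col4a4 in WT and more in Kif3aΔTub. Col27a1, a fibrillar-type chain best known from cartilage, was at 86.2 and 21.1 (-2.27, -2.47 to -2.07), and Col8a1, a short-chain network collagen, at 11.7 and 5.27 (-1.38). Col16a1 rested on 13 and 14 UMIs (1.395, 0.20 to 2.61), and Col12a1, which decorates fibrils, was at 3.46 and 5.36 CPM.

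Of 10 members tested in proximal tubule-like cells, 4 were called higher and 4 lower, where 9.82% and 6.13% of all 12130 genes tested were. Mitochondrial UMIs were at a median of 27.9% and 20.0% and the summed dissociation stress genes at 617 and 1194 CPM, and their part in these values was not tested. Col4a2 was no longer called with at least 1000 UMIs per cell, a finer clustering, libraries clustered separately or only the clusters with at least 20 cells in each library, where it reached 0.53 at the lowest. The last of these also took Col4a1 to 0.89, while Col18a1, Col27a1 and Col4a3 were called under each of their 13 alternatives. As in the other classes, such counts include alternatives that only rescaled class totals, which cannot change a ratio relative to the median gene. A limit of 25% mitochondrial UMIs took Col4a4 to -0.87 and Col8a1 to -0.42, and a finer clustering or at least 1000 UMIs per cell ended the call of Col16a1.

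In thick ascending limb-like cells, 4 basement membrane genes stood higher and the fibrillar gene Col5a2 lower in Kif3aΔTub. Col4a1 was at 29.2 CPM in 338 WT cells and 192 in 575 Kif3aΔTub cells (log2 ratio 2.25, 1.95 to 2.57), and Col4a2 at 21.3 and 122 (2.04, 1.70 to 2.43). Col18a1 was at 29.8 and 197 (2.26, 1.96 to 2.58). Col4a6, which forms another type IV trimer with Col4a5, had 2 UMIs and 56 (2.84, 1.23 to 6.23). Col4a4 at 317 and 327 CPM and Col4a3 at 177 and 229 were close to the median gene (-0.42 and -0.10), as was Col4a5 at 49.9 and 60.1. Col5a2, a chain of type V collagen, was at 145.8 CPM in WT and 14.1 in Kif3aΔTub (-3.83, -4.15 to -3.52). Col27a1 at 3.14 and 2.74 CPM and Col12a1 at 3.14 and 6.72 rested on 10 WT UMIs each.

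Of 10 members tested in this class, 4 were called higher against a background of 13.4% of 11299 genes, and 1 lower against 9.83%. Median mitochondrial UMIs were at 34.2% in WT and 7.24% in Kif3aΔTub and stress genes at 916 and 3595 CPM, which was not separated from the differences. Cluster 13 held 326 of the WT cells and cluster 7 held 551 of the Kif3aΔTub cells. Within cluster 13, which also took 24 Kif3aΔTub cells, Col5a2 was at 148 CPM (135 to 162) in WT and 128 (87.3 to 182) in Kif3aΔTub, and Col4a1 at 29.2 (23.5 to 35.9) and 49.7 (25.7 to 86.9), with overlapping intervals. Over that cluster alone the calls of Col5a2, Col4a1 and Col4a2 ended, at -0.23, 0.77 and 0.25. Col18a1, at 29.2 CPM (23.5 to 35.9) and 91.2 (57.1 to 138) there, was called in all 12 alternatives. Col4a6 was called in all of its 10 alternatives, which do not include that cluster alone.

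**Figure D3:**
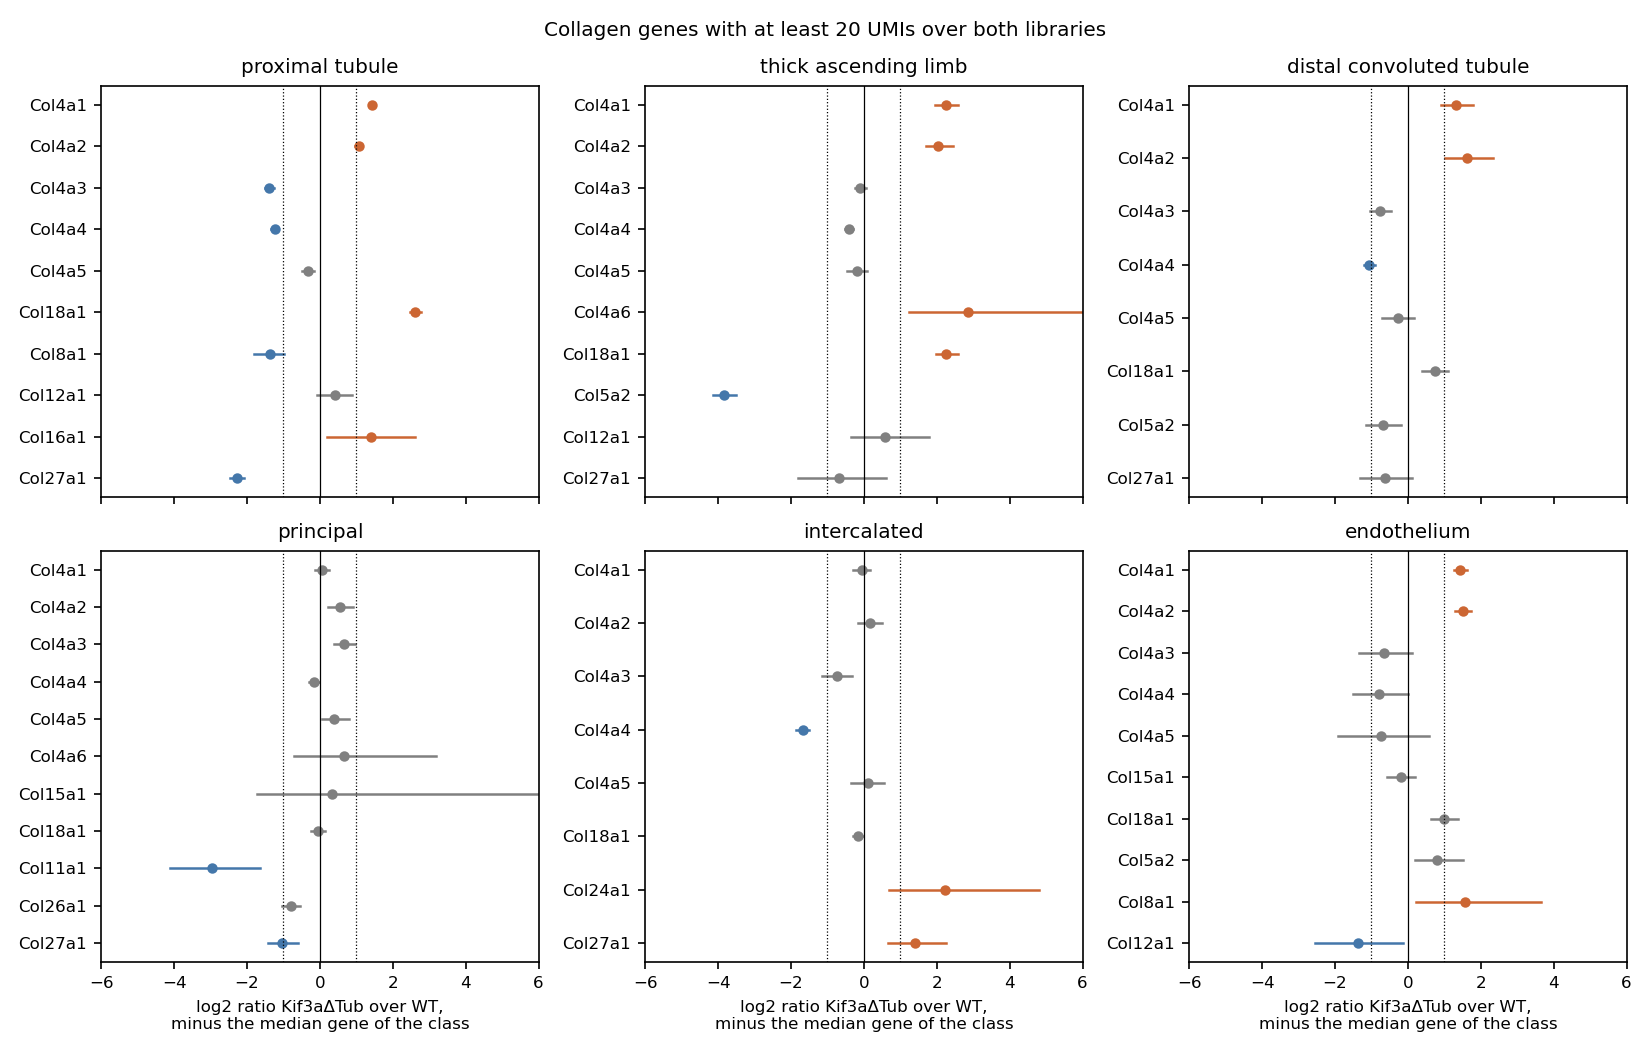
Log2 ratio of Kif3aΔTub over WT relative to the median gene of the class (x axis) for each collagen gene with at least 20 UMIs over both libraries (rows), in 6 cell classes (panels), with 95% counting intervals as lines; orange marks at least 2-fold higher, blue at least 2-fold lower, grey the rest, and lines are cut at the panel edge. Col4a1 and Col4a2 stand to the right in proximal tubule, thick ascending limb, distal convoluted tubule and endothelium while in principal cells Col4a1 is at 0.06 and Col4a2 at 0.55, and both are near 0 in intercalated cells.

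Distal convoluted tubule-like cells had more Col4a1 and Col4a2 and less Col4a4 in Kif3aΔTub. Col4a1 was at 29.5 CPM in 215 WT cells and 104 in 352 Kif3aΔTub cells (log2 ratio 1.32, 0.90 to 1.80), and Col4a2 at 13.5 and 58.9 (1.61, 1.01 to 2.34). Col4a4, the most abundant collagen of this class in both libraries, was at 376 and 252 (-1.06, -1.20 to -0.91). Col18a1 at 49.2 and 115 CPM (0.74) and Col4a3 at 94.1 and 77.3 (-0.76) did not reach 2-fold, nor did Col4a5 at 37.5 and 43.2, Col5a2 at 33.2 and 28.8 or Col27a1 at 15.4 and 13.9. Of 8 members tested 2 were called higher against a background of 10.6% of 10095 genes and 1 lower against 8.2%.

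Within the shared cluster, Col4a3, Col4a4, Col27a1 and the scarce Col5a2 and Col26a1 were at least 2-fold apart in CPM, but not Col4a1 or Col4a2. Cluster 20 held 171 WT cells, with Col4a1 at 19.0 CPM (12.4 to 27.8) and Col18a1 at 36.5 (27.1 to 48.2). In cluster 12, with 44 WT and 351 Kif3aΔTub cells, Col4a1 was at 85.4 (53.5 to 129) and 104 (94.3 to 114) and Col18a1 at 116 (78.6 to 166) and 115 (105 to 125), so that neither differed beyond its counting error. Relative to the median gene Col4a1 turned to -0.13 there and Col4a2 stood at 0.46. Col4a4 kept its order in cluster 12, at 567 (479 to 666) and 252 (237 to 268), and Col27a1 was at 66.0 (38.4 to 106) and 13.7 (10.4 to 17.8). Col4a3, short of 2-fold over the class, was at 171 and 77.4 in that cluster. Col5a2, close to level over the class, was at 7.76 and 28.85 there, and Col26a1 at 15.5 and 1.92. Both rest on few UMIs, as the WT cells of the cluster had 257645 UMIs over all genes. Col4a4 was not called with cells thinned to 1000 UMIs each or without centring on the median gene, where it stood at -0.58. Median mitochondrial UMIs of the class were at 36.6% and 13.4% and stress genes at 1211 and 3403 CPM.

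Principal-like cells were named from markers of connecting tubule and collecting duct together. They had the highest collagen level of the 5 tubule classes in both libraries, at 1382 and 1367 CPM. No basement membrane gene reached 2-fold over the whole class. Col4a4 was at 490.4 CPM in 140 WT cells and 444 in 970 Kif3aΔTub cells (log2 ratio -0.17). Col18a1 was at 223 and 218 (-0.06) and Col4a1 at 219 and 232 (0.06). Col4a3 at 102 and 165 (0.66), Col4a2 at 69.3 and 104 (0.55) and Col4a5 at 60.2 and 81.0 (0.40) were somewhat higher in Kif3aΔTub, short of 2-fold. Col4a6 had 3 UMIs and 75, and Col15a1 1 and 25. The members called were all of the other group and all lower.

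Col26a1, a gene with 65.9% of its WT and 51.3% of its Kif3aΔTub UMIs in principal-like cells, was at 148 CPM (126 to 172) and 86.8 (82.1 to 91.7) there (-0.80, -1.03 to -0.55). Col27a1 was at 53.8 and 26.8 (-1.04, -1.43 to -0.61) and Col11a1, a fibrillar-type chain of cartilage, at 9.12 and 1.23 on 10 and 18 UMIs (-2.95, -4.11 to -1.64). Of 11 members tested 0 were called higher, where 9.08% of 11659 genes were, and 2 lower, where 6.18% were. The call of Col27a1 ended with doublets kept, with libraries clustered separately and with thinned cells, where it reached -0.91. Median mitochondrial UMIs were at 13.9% and 7.48% and stress genes at 1964 and 2692 CPM. Most WT cells were in cluster 18 and most Kif3aΔTub cells in cluster 2. Calb1 and S100g were among the 10 leading genes of cluster 18 but not of cluster 2. The part of connecting tubule and collecting duct identity in the class ratios was not tested. Within cluster 18 Col27a1 was at 57.4 (43.6 to 74.2) and 27.2 (19.8 to 36.4), and the intervals of Col4a4 ran from 457 to 546 in WT and from 575 to 651 in Kif3aΔTub. Col4a3 stood at 99.0 and 207 CPM in that cluster and Col26a1 at 153.5 and 55.6, both further apart than over the class.

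Intercalated-like cells, the acid and base secreting cells of the collecting duct, had less Col4a4 in Kif3aΔTub and more of 2 scarce members. Col4a4 was at 252 CPM in 287 WT cells and 93.7 in 433 Kif3aΔTub cells (log2 ratio -1.68, -1.87 to -1.503). Col18a1, their leading collagen, was at 286 and 305 (-0.17), Col4a1 at 80.2 and 91.8 (-0.06) and Col4a2 at 40.9 and 54.9 (0.17). Col27a1 had 18 and 69 UMIs (1.39, 0.65 to 2.25) and Col24a1, a chain related to fibrillar collagens, 3 and 23 (2.23, 0.69 to 4.797). Col4a3 was at 34.6 and 24.98 CPM and Col4a5 at 21.8 and 28.1. Of 8 members tested 2 were called higher, where 5.74% of 10447 genes were, and 1 lower, where 5.27% were. Median mitochondrial UMIs were at 24.9% and 10.54% and stress genes at 1356 and 2974 CPM.

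Both clusters of the class held cells of both libraries and gave the same order for Col4a4. It was at 285 CPM (258 to 314) and 103 (90.6 to 116) in cluster 11 and at 225 (203 to 248) and 77.0 (62.9 to 93.2) in cluster 17. Its call ended, though, under 4 alternatives that changed which cells made up the class, where it reached -0.46, and Col27a1 was not called under 6, reaching 0.05. Among the unnamed clusters, cluster 14 carried intercalated and principal markers together at a median of 26327 UMIs per cell. It held 21 WT and 313 Kif3aΔTub cells, and Col4a1 made up 24.8% and 36.7% of its UMIs of Col4a1 and Col4a4.

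Endothelium-like cells showed the largest difference in summed basement membrane collagens among the 6 classes, at 1141 CPM (1060 to 1226) in WT and 2666 (2590 to 2743) in Kif3aΔTub. Col4a1 and Col4a2 made up most of it: Col4a1 was at 484 and 1335 CPM in 155 and 474 cells (log2 ratio 1.44, 1.27 to 1.61) and Col4a2 at 318 and 921 (1.51, 1.30 to 1.73). Col18a1 was at 116 and 234 (0.98, 0.63 to 1.37). Col15a1, an endothelial and fibroblast member, was level at 126 and 113 (-0.19), and Col4a3 and Col4a4 were low, at 41.6 and 27.3 and at 40.1 and 23.9. Col8a1 had 4 UMIs and 36 (1.56, 0.23 to 3.66), Col12a1 13 and 14 (-1.36, -2.55 to -0.15) and Col5a2 25 and 122 (0.80).

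Of 10 members tested in endothelium-like cells 3 were called higher against 4.66% of 9017 genes and 1 lower against 3.73%. All 4 were called in each of the 12 or 13 alternatives that gave them a value. The difference in Col4a1 stood in both clusters of the class. Cluster 15 had Col4a1 at 544 CPM (459 to 639) and 932 (862 to 1005) and most of the Col15a1, at 252 (195 to 319) and 233 (199 to 271). Cluster 16 had Col4a1 at 441 (377 to 514) and 1616 (1540 to 1695), Col18a1 at 137 (103 to 180) and 299 (266 to 334), and all 36 Col8a1 UMIs of the Kif3aΔTub class. Mitochondrial UMIs were low in both libraries here, at a median of 5.86% and 4.01%, and stress genes close, at 5140 and 4858 CPM. Summed markers of proximal tubule stood at 1703 and 257 CPM (1 and 2 of 18 markers at 0), of adipocytes at 3038 and 6219 (6 and 3 of 8 at 0) and of mural cells at 262 and 639 (8 and 6 of 17 at 0), and their part in these values was not tested.

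Summed over basement membrane genes the remaining classes differed less. The sum was 535 CPM (527 to 543) and 731 (715 to 747) in proximal tubule-like, 625 (598 to 653) and 1135 (1111 to 1160) in thick ascending limb-like and 599.5 (562 to 638) and 651 (627 to 676) in distal convoluted tubule-like cells. It was 1168 (1105 to 1233) and 1250 (1232 to 1268) in principal-like and 715 (686 to 745) and 599 (575 to 624) in intercalated-like cells, where it was the lower in Kif3aΔTub. Opposite differences of Col4a1 and Col4a4 partly cancelled in the sums of proximal tubule-like and distal convoluted tubule-like cells. With clusters that have at least 20 cells in each library, the log2 ratio of CPM of the sums was -0.09 in place of 0.45 in proximal tubule-like and -0.62 in place of 0.12 in distal convoluted tubule-like cells. Relative to the median gene the sum stood at 0.21 in proximal tubule-like cells and was already lower in Kif3aΔTub in distal convoluted tubule-like cells, at -0.36. The median member of a class lay at 0.04, 0.24, -0.46, 0.06, 0.02 and 0.31 in the order proximal tubule, thick ascending limb, distal convoluted tubule, principal, intercalated and endothelium, and the median of all tested genes between -0.0089 and 0.021. The log2 ratio of CPM of the sums was positive at 0.17 and 0.18 in intercalated-like cells with doublets kept and with a coarser clustering.

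Proximal tubule clusters differed in members as well as in library. Col27a1 was at 110.0 CPM (105 to 116) in WT cells of cluster 0 and 128 (120 to 137) in cluster 8, but at 15.4 (11.9 to 19.5) in cluster 5 and 9.15 (6.41 to 12.7) in cluster 9. Cluster 3, where most Kif3aΔTub cells of the class were, had it at 19.8 (17.1 to 22.8). Kif3aΔTub cells of cluster 0 had it at 77.3 (49.6 to 115), under 2-fold from WT there and with overlapping intervals. In cluster 10 Col27a1 was at 21.9 in WT and 3.8 in Kif3aΔTub, out of 410918 and 263163 UMIs over all genes. In cluster 5 the 28 Kif3aΔTub cells had no UMI of it among 135422, where a count of 0 allows up to 3. The Kif3aΔTub values of these clusters rest on too few UMIs to read a difference from them. Col8a1 was likewise uneven in WT, at 19.4 (17.3 to 21.8) in cluster 0 and 0.720 (0.234 to 1.68) in cluster 8. Col4a1 was at 86.0 (81.3 to 90.8) and 209 (162 to 267) within cluster 0 and at 51.1 (31.6 to 78.1) and 182 (135 to 242) within cluster 10, higher in Kif3aΔTub in both, but at 84.1 (75.8 to 93.1) and 118 (67.5 to 192) within cluster 5, where the intervals overlap. Col18a1 was at 7.30 (1.51 to 21.3) and 72.2 (43.5 to 113) in cluster 10 and at 24.3 (21.8 to 26.9) and 45.1 (24.7 to 75.7) in cluster 0, where the intervals overlap.

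**Figure D4:**
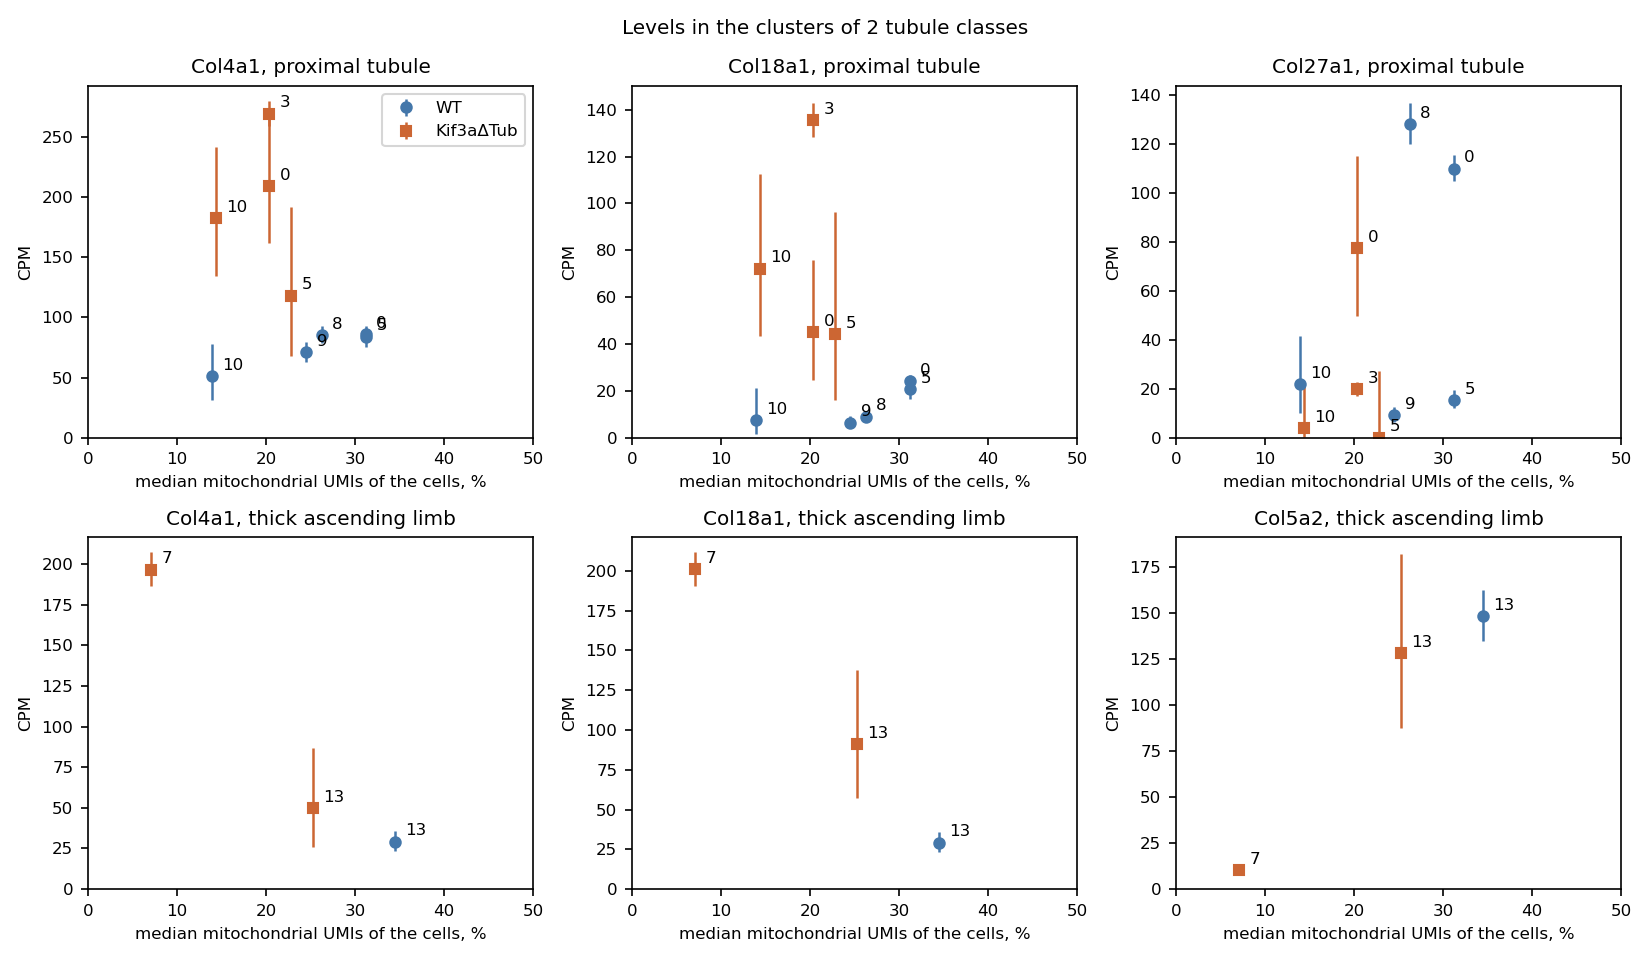
Level in CPM of Col4a1, Col18a1 and Col27a1 in the clusters of proximal tubule-like cells (upper panels) and of Col4a1, Col18a1 and Col5a2 in those of thick ascending limb-like cells (lower panels), WT as blue circles and Kif3aΔTub as orange squares, with 95% Poisson intervals as bars and clusters of at least 20 cells only. In cluster 13 Col5a2 is at 148 and 128 CPM, while cluster 7 of Kif3aΔTub has it at 10.2 and Col4a1 at 197.

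Fibrillar collagens came from few cells. A fibroblast-like part of the mural cluster, separated after the data were seen, held 28 cells, all of Kif3aΔTub, and 77.1% (76.1 to 78.2) of that library's fibrillar UMIs in 0.396% of its cells. These cells had Col3a1 at 6743 CPM (6458 to 7037), Col1a1 at 4967 (4722 to 5220) and Col1a2 at 3542 (3337 to 3757), with Col1a1 and Col3a1 both seen in 26 of the 28 cells. Col5a2 stood there at 848 CPM, Col5a1 at 368 and Col5a3 at 48.0 on 15 UMIs. Basement membrane members were high in the same cells, with Col4a1 at 2214, Col4a2 at 1594, Col15a1 at 1021 and Col18a1 at 429 CPM. So were many of the other members, with Col12a1 at 1331, Col6a3 at 531, Col14a1 at 525, Col6a1 at 330, Col8a1 at 262, Col16a1 at 157, Col6a2 at 147 and Col7a1 at 64.0 CPM on 20 UMIs. With 0 WT cells in it, the class allowed no comparison.

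Mural-like cells, 48 in WT and 35 in Kif3aΔTub, had higher fibrillar collagens in Kif3aΔTub. The sum was 415 CPM (330 to 516) and 2520 (2290 to 2768), a log2 ratio of CPM of 2.59 (2.26 to 2.96). Col3a1 was at 215 and 938 CPM, Col1a2 at 97.4 and 679 and Col1a1 at 76.9 and 541, while Col5a2 had 5 and 44 UMIs, as had Col6a3. With the mural cluster left undivided, the Kif3aΔTub sum was 11510 CPM. Single cells weighed heavily: 1 Kif3aΔTub cell gave 24.7% of the fibrillar UMIs, and 1 WT cell gave 12.4%. Basement membrane collagens stood at 1718 and 4212 CPM (1.29, 1.11 to 1.49), with Col4a1 at 662 and 1559, Col4a2 at 636 and 1427 and Col18a1 at 297 and 1018. Fibroblast markers summed to 856 and 1536 CPM there (8 and 9 of 15 at 0) and proximal tubule markers to 3995 and 317 (1 and 9 of 18 at 0), and their part was not tested.

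**Figure D5:**
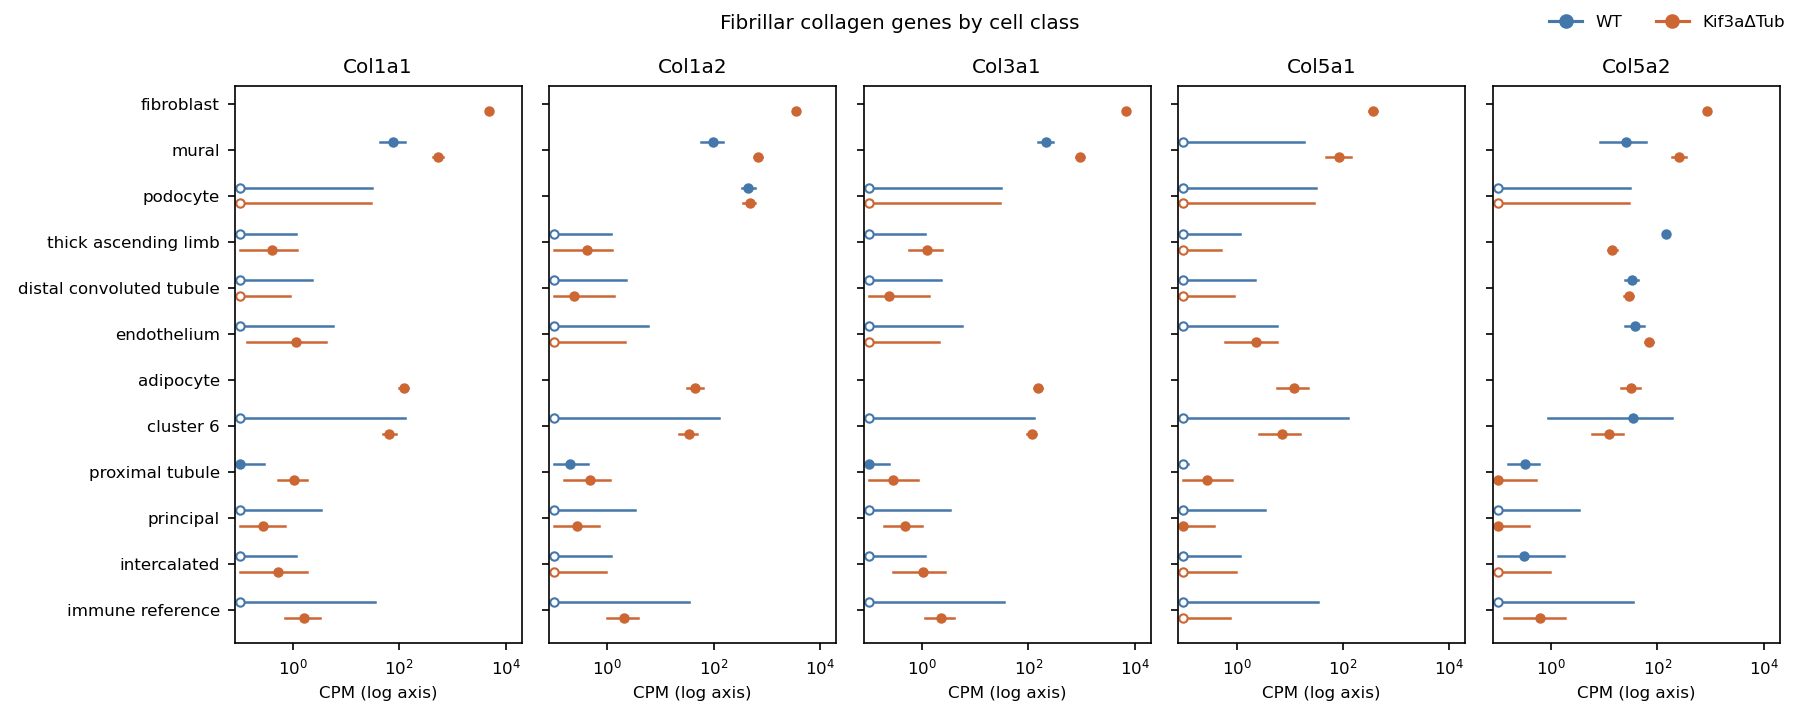
Level of 5 fibrillar collagens, without the scarce Col5a3 (CPM, log axis), in each cell class, WT in blue and Kif3aΔTub in orange, with 95% Poisson intervals as bars; open circles mark 0 UMIs and are drawn at 0.1, where levels under 0.1 are also drawn. All 5 genes are highest in the fibroblast-like cells of Kif3aΔTub, Col1a2 stands out in podocytes and Col5a2 in thick ascending limb.

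Away from these cells, single fibrillar genes appeared without their partners. In WT 65.9% (62.2 to 69.4) of all fibrillar UMIs were Col5a2 in thick ascending limb-like cells. A Col5a2 UMI was seen in 32.0% (27.0 to 37.2) of these WT cells and 9.39% (7.13 to 12.1) of those in Kif3aΔTub, at median depths of 8847 and 8999 UMIs. With each cell thinned to 1000 UMIs the shares were 7.95% and 1.75%. In immune cells, which should lack the gene, 0 of 40 WT cells had one (exact interval up to 8.81%) and 0.289% of 1038 Kif3aΔTub cells did, at median depths of 2118.5 and 4176.5 UMIs. All 465 fibrillar UMIs of these WT cells and 103 of 118 in Kif3aΔTub were Col5a2, so that its usual fibril partners were nearly unseen there. Col5a2 and Col3a1 lie on chromosome 1 with starts 191744 bases apart, on opposite strands.

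Podocyte-like cells carried Col1a2 without Col1a1. Col1a2 was at 447 CPM (334 to 584) in 13 of 16 WT cells and 472 (360 to 608) in 22 of 30 Kif3aΔTub cells. No Col1a1 UMI was seen in either, which allows up to 25.3 and 23.6 CPM. The fibrillar sum of the class therefore was Col1a2 alone. In adipocyte-like cells of Kif3aΔTub 83.6% of the fibrillar UMIs came from 1 of 38 cells, so the level of 394 CPM there describes that cell. Principal-like, intercalated-like and urothelium-like cells had fibrillar sums from 0 to 1.56 CPM, at or below the 6.80 CPM of immune cells in Kif3aΔTub.

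Of the other members, some had most of their UMIs in 1 class. Col17a1, an anchoring collagen of hemidesmosomes, had 82.1% (66.5 to 92.5) of its 39 Kif3aΔTub UMIs in 83 urothelium-like cells, at 29.1 CPM. Col7a1, which forms anchoring fibrils, had 17 UMIs in the same cells, next to the 20 of the fibroblast-like cells, and Col4a6 was at 24.6 CPM, Col18a1 at 106 and Col4a5 at 56.4 CPM. Col27a1 had 93.8% (92.9 to 94.7) of its WT UMIs in proximal tubule-like cells, which were 68.6% of the cells, but 14.5% (12.8 to 16.4) of those in Kif3aΔTub. There principal-like cells, cluster 14 and cluster 1 held 25.5%, 24.4% and 20.0%.

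Col14a1, a collagen that coats fibrils, had most of its UMIs in macrophage-like cells. Of 704 UMIs in Kif3aΔTub, 60.7% (56.9 to 64.3) were in these cells and 23.3% in fibroblast-like cells. It was at 128 CPM (116 to 141) over 669 macrophage-like cells and seen in 235 of them, 35.1% (31.5 to 38.9), of which 234 also had the macrophage gene C1qa. In monocyte-like cells it was at 37.6 CPM and in 8.66% (5.37 to 13.1), at median depths of 4252 and 5351 UMIs, and in cluster 1 in 2.07% of cells. WT held 4 macrophage-like cells, and Col14a1 overlaps genes on the other strand, so its counts are uncertain where strand was not used.

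At the level of the whole library, where fewer cells of a class and less RNA per cell cannot be told apart, all collagens stood at 708 CPM in WT and 1175 in Kif3aΔTub, a log2 ratio of CPM of 0.73 (0.71 to 0.75). The Kif3aΔTub levels of 10 classes and unnamed clusters with at least 20 cells in each library were also weighted by the WT class shares, and the ratio was 0.33. That weighting leaves out every class with fewer WT cells, among them clusters 1 and 23. Cluster 1 alone held 15567 of the 92934 collagen UMIs of Kif3aΔTub. The fibrillar sum was at 16.6 and 84.6 CPM (2.35, 2.24 to 2.46), but 0.16 with WT class shares, which leave out the fibroblast-like cells. Col4a1 was at 91.1 and 249 CPM and 1.51 with WT class shares, and Col18a1 at 53.5 and 190.3 and 1.60. Col4a4 changed sides, at 220 and 249 CPM (0.18) over all cells and -0.73 with WT class shares. Col26a1, at 5.79 and 31.4 CPM (2.44), did so too, at -0.26. Proximal tubule-like cells gave 65.2% of WT collagen UMIs, and principal-like cells gave 21.6% of those in Kif3aΔTub, where proximal tubule-like cells gave 8.79%.

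The genes that modify, fold and cross-link collagen were compared in the same 6 classes. For each list the background is the share of all tested genes called higher and lower: proximal tubule, 9.82% and 6.13%, then thick ascending limb, 13.4% and 9.83%, distal convoluted tubule, 10.6% and 8.2%, principal, 9.08% and 6.18%, intercalated, 5.74% and 5.27%, and endothelium, 4.66% and 3.73%. Of 15 hydroxylases and glycosyltransferases of collagen, 12 were tested in proximal tubule-like cells with 1 higher and 1 lower, 14 in thick ascending limb-like cells with 3 higher and 2 lower, 11 in distal convoluted tubule-like cells with 2 higher and 3 lower, and 13 in principal-like cells with 0 higher and 2 lower. The single calls in proximal tubule-like cells are near the background. None of the 10 tested in intercalated-like and the 12 in endothelium-like cells was called. P3h2, a prolyl 3-hydroxylase, was the lower in Kif3aΔTub in 3 tubule classes, at 126 and 53.9 CPM in thick ascending limb-like cells (-1.69), and P4ha2, a prolyl 4-hydroxylase subunit, had 1 and 90 UMIs there. Of 10 folding and export genes 2 were called higher in thick ascending limb-like and in principal-like cells, 1 in endothelium-like cells and 0 in the other classes, with no call lower. Serpinh1, the collagen chaperone HSP47, was at 80.2 and 131 CPM in principal-like cells (0.67), short of a call.

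Procollagen processing and cross-linking genes were sparse, and 5 of 14 were tested in thick ascending limb-like cells, 4 of them higher. Tgm2, a transglutaminase, had 2 and 180 UMIs there, Bmp1, the C-proteinase of procollagen, 1 and 72, and Pxdn, which cross-links type IV collagen, 1 and 63. In proximal tubule-like cells 3 of 5 were higher and in distal convoluted tubule-like cells 2 of 3, while principal-like and intercalated-like cells had 1 higher and 1 lower each and endothelium-like cells 0 of 5 called. Pcolce, an enhancer of that C-proteinase, was at 99.2 and 269 CPM in intercalated-like cells (1.18, 1.00 to 1.36). Of 10 collagen receptors, 1 of 3 tested was higher in proximal tubule-like, 2 of 4 in thick ascending limb-like and 1 of 4 in principal-like cells, with 0 called in the other classes and 0 lower. Ddr1, a receptor kinase for collagen, was at 23.2 and 61.3 CPM in proximal tubule-like cells (1.17) and the integrin chain Itgb1 at 115 and 468 in thick ascending limb-like cells (1.57).

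Of 21 basement membrane genes other than collagens, 10 of 16 tested were called higher and 0 lower in thick ascending limb-like cells (background 13.4% and 9.83%), with a median of 2.11, and 7 of 17 higher and 1 lower in proximal tubule-like cells (9.82% and 6.13%). As these shares show, more genes of all kinds were called higher than lower. Distal convoluted tubule-like and principal-like cells had 4 higher each, of 12 and of 13 tested, intercalated-like cells 2 of 12 and endothelium-like cells 3 higher and 2 lower of 12. Npnt, a ligand of integrins in the nephron, was at 4.70 and 58.6 CPM in thick ascending limb-like (3.13) and 33.7 and 238 in intercalated-like cells (2.56). Nid1, which links laminin to type IV collagen, was at 83.2 and 206 CPM in endothelium-like cells (1.27), and Tinagl1, a matricellular protein, at 916 and 414 (-1.17).

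The dissociation stress genes, listed for comparison, were called higher in 11 of 18 tested in proximal tubule-like, 16 of 20 in thick ascending limb-like, 11 of 19 in distal convoluted tubule-like, 5 of 19 in principal-like, 11 of 19 in intercalated-like and 4 of 18 in endothelium-like cells, and lower in 1 gene of the last. Of 17 small proteoglycans and adaptors of fibrils, 4 of 5 tested were higher in thick ascending limb-like cells, among them Fn1 with 0 and 214 UMIs, where a count of 0 in WT allows up to 3 UMIs. In proximal tubule-like cells 4 of 5 were higher and 1 lower, in distal convoluted tubule-like cells 1 of 2 was higher, in principal-like cells 2 of 5 were higher and 1 lower, and in intercalated-like cells 1 of 3 was lower. In endothelium-like cells 3 of 9 were higher, with Bgn, a small proteoglycan, at 49.3 and 152 CPM (1.58).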

How the data were processed

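One 10x Chromium 3′ library per genotype was used, each as a matrix of whole-number UMI counts per gene and cell barcode, deposited by the authors after cell calling. The submitters' processing notes name Cell Ranger 3.0.2, Seurat 3.1.1 and mm10, whereas the matrices carry software version 3.1.0, per the file headers. Aligner settings and strand are not given in the sources used here. The WT library had 6938 barcodes and the Kif3aΔTub library 7950. Cells were kept that reached 500 UMIs and 200 genes with under 50% of their UMIs mitochondrial (4371 and 7236), and 54 and 170 doublets called by Scrublet were removed, which left 42468386 and 79060495 UMIs.

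Cells of both libraries were clustered together without collagen genes (scanpy 1.11.5: genes in at least 10 cells, 10000 UMIs per cell, log scale, 2000 variable genes, 30 components, 15 neighbours; leidenalg 0.10.2 at resolution 1, seed 0; Python 3.11.15). Clusters were named from marker lists of 26 cell types. A name needed at least 3 markers with 50 CPM, 20 UMIs and a 2-fold excess in the cluster, whose 10 leading genes could not favour another type. Some named clusters were shallow, with median depths of 1070 UMIs in cluster 10 (proximal tubule) and 1004.5 in cluster 25 (neutrophil). The mural cluster was split at resolution 0.3 after the data were seen. Immune-named cells together served as the class that should lack most collagens.

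UMIs were summed per class and library. Levels have exact Poisson and shares exact Clopper-Pearson 95% intervals (scipy 1.17.1). Log2 ratios use 0.5 added to each count, with exact conditional intervals, and are centred on the median gene with at least 100 UMIs. Classes with at least 100 cells per library were compared and levels given for classes with at least 20 cells, or fewer where stated. A gene with at least 20 UMIs over both libraries was tested against a 2-fold limit, with no p-value, since each genotype has 1 library. A count of 0 allows up to 3 counts. Shares of cells were also taken after thinning to 1000 UMIs. TMM and median-of-ratios factors (edgeR 4.0.16, R 4.3.3) were alternatives to class totals. The calculation was tested on simulated data.

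The collagen genes and pathway lists were chosen with earlier results of these data known. Members with at least 20 UMIs in 1 class of 1 library are named, others counted, and of pathway genes up to 4 per class with the largest absolute ratio could be named. Of the columns, 0 had no sample.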

Additional observations from a re-analysis of the deposited data

Results flagged for a closer look

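In 2 collagens a difference of at least 2-fold between the libraries had opposite signs in different cell classes. Col27a1 stood at -2.27 in proximal tubule-like and -1.04 in principal-like cells but at 1.39 in intercalated-like cells, as log2 ratios of Kif3aΔTub over WT relative to the median gene. Col8a1 stood at -1.38 in proximal tubule-like and 1.56 in endothelium-like cells. With 1 library per genotype these differences between classes were not tested. The value in intercalated-like cells rests on 18 and 69 UMIs and that of Col8a1 in endothelium-like cells on 4 and 36. The call of Col27a1 was lost in 6 of 12 alternatives in intercalated-like cells, down to 0.05, and in 3 of 12 in principal-like cells. That of Col8a1 in proximal tubule-like cells was lost at a 25% mitochondrial limit, at -0.42. Members past 2-fold in 1 class only could have the opposite sign elsewhere, as Col4a3 did at -1.39 in proximal tubule-like and 0.66 in principal-like cells, and Col5a2 at -3.83 in thick ascending limb-like and 0.80 in endothelium-like cells.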

How the results depend on the processing

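There were 25 calls, each of a member in a class, so that a gene called in several classes counts once for each. Of these, 11 held in every alternative that gave a value and 13 were lost in at least 1. Scaling without mitochondrial genes and the TMM and median-of-ratios factors shift all genes of a class alike. They could not end a call, because calls are taken relative to the median gene. The call of Col4a1 in distal convoluted tubule-like cells turned to -0.13 within clusters of at least 20 cells in each library. That alternative and the undivided mural cluster were chosen after the data were seen. With no replicates, depth limits only counting error, and what would vary between animals was not measured. No paired analysis was possible because each genotype has 1 library. Distal convoluted tubule-like and thick ascending limb-like cells at a 25% mitochondrial limit, and distal convoluted tubule-like and principal-like cells at resolution 0.5, gave no value, since a library had under 100 cells. The cause of the following differences was not tested.

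The log2 ratios of CPM of summed collagens, not centred on the median gene, moved as follows. For basement membrane collagens, the value as reported is in brackets. In proximal tubule-like cells (0.45) they were 0.63 at a 25% mitochondrial limit, 0.28 at 1000 UMIs, 0.28 without mitochondrial genes, 0.24 at resolution 2, 0.13 with separate clustering, 0.16 with TMM, 0.15 with median-of-ratios factors, 0.35 with thinned cells, 0.35 without the top 5% of cells and -0.094 within shared clusters. In thick ascending limb-like cells (0.86) they were 0.41 without mitochondrial genes, 0.45 with TMM, 0.44 with median-of-ratios factors, 0.98 thinned and 0.40 within the shared cluster. In distal convoluted tubule-like cells (0.12) they were 0.30 at 1000 UMIs, -0.29 without mitochondrial genes, -0.31 with TMM and with median-of-ratios factors, and -0.62 within the shared cluster. In principal-like cells (0.098) they were -0.13 at the 25% limit, -0.035 without mitochondrial genes and 0.22 within the shared cluster. In intercalated-like cells (-0.26) they were 0.17 with doublets kept, 0.18 at resolution 0.5, -0.034 at resolution 2, -0.041 clustered separately, -0.51 without mitochondrial genes, -0.51 with TMM and -0.52 with median-of-ratios factors. In endothelium-like cells (1.22) they were 1.10 with doublets kept and 1.10 thinned. All collagens over all cells (0.73) stood at 0.65 at the 25% limit and 0.40 without mitochondrial genes.

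For all collagens, also as ratios of CPM, in proximal tubule-like cells the ratio was -0.016 clustered separately, -0.026 with TMM, -0.033 with median-of-ratios factors and -0.22 within shared clusters, and in intercalated-like cells 0.23 with doublets kept, 0.23 at resolution 0.5 and 0.0080 at resolution 2. For fibrillar collagens in endothelium-like cells it was -0.36 thinned.

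Counts of called members depended on the limits. The share of all genes called was taken only under the main rule, so these counts have no background and describe the limits alone. With at least 1 UMI, members with few UMIs can pass 2-fold by counting error. With at least 1 UMI they were 29 in proximal tubule-like (8), 15 in thick ascending limb-like (5), 10 in distal convoluted tubule-like (3), 13 in principal-like (2), 10 in intercalated-like (3) and 9 in endothelium-like cells (4). At 1.5-fold they were 7 in distal convoluted tubule-like, 5 in principal-like and 9 in endothelium-like cells. At 50 UMIs they were 1 in principal-like and 2 in endothelium-like cells, and with thinned cells again 1 and 2. At the 25% limit they were 5 in proximal tubule-like and 7 in principal-like cells, at 1000 UMIs 6 in distal convoluted tubule-like and 5 in principal-like cells, with doublets kept 1 in principal-like cells, and with separate clustering 1 in principal-like and in intercalated-like cells. They were 5 in principal-like cells with collagens kept in the clustering, 1 in intercalated-like cells at resolution 2 and 1 in thick ascending limb-like cells within the shared cluster.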

Other observations

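Clusters that took no name held much of the collagen of the Kif3aΔTub library. Cluster 23, with 100 Kif3aΔTub and 2 WT cells, had Tagln, Vcam1, Cp, Tnc and Ccl2 among its leading genes and gave 4.96% of that library's collagen UMIs from 1.42% of its cells. Its Col4a1 level of 1925 CPM was near that of the fibroblast-like cells (2214), and Col4a2 was at 864 and Col18a1 at 511 CPM. Unlike those cells it had few fibrillar UMIs, at 24.8 CPM (16.6 to 35.6), and it kept Col4a4 at 180.1, Col4a5 at 170 and Col4a3 at 135 CPM. Cluster 1, with 918 Kif3aΔTub cells and 1 WT cell, carried principal markers and Lcn2 and had Col4a4 at 279, Col18a1 at 201, Col4a1 at 167 and Col26a1 at 37.6 CPM. Col11a1 had 70 UMIs there, more than in any other class. No comparison between genotypes was possible in either.

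Cycling cells, 65 in WT and 101 in Kif3aΔTub, had Col4a1 at 142 and 317 CPM and Col18a1 at 38.4 and 189 CPM. Adipocyte-like cells, 38 in Kif3aΔTub, had Col4a1 at 520.1 and Col4a2 at 230 CPM, Col6a1 at 83.9 CPM in 23 cells and Col5a3 at 30.4 CPM in 16 cells. In WT mural-like cells Col19a1 had 11 UMIs spread over 10 cells, most of its 13 UMIs in that library. In cluster 6, a cluster of low depth, 69.4% of the fibrillar UMIs of Kif3aΔTub came from 1 cell.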
